A study of Rattus norvegicus with 9 samples.

Results

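The genes described here are the 9 genes that encode receptors for neuropeptide Y (NPY), galanin, vasoactive intestinal peptide (VIP) and pituitary adenylate cyclase-activating polypeptide (PACAP). They are Npy1r, Npy2r and Npy5r, then Galr1, Galr2 and Galr3, then Vipr1, Vipr2 and Adcyap1r1. They were listed by name and not by a cut on their values, but with earlier results of these data known. Each matched a single row among the 20413 genes of the table. Expression was measured by RNA-Seq in L4-6 dorsal root ganglia (DRGs) on the side of the O-ring, where the sensory neurons of the hind limb have their cell bodies, from male Sprague Dawley rats aged 8 to 10 weeks. The 9 libraries, collected on day 10, fall into 3 groups of 3. The Sham group (labelled Con) had anesthesia and an open ring in place of the tight one, and no ischemia. CPIP rats, a model of chronic post-ischemia pain, had 3 h of hind paw ischemia under a tight O-ring, followed by reperfusion. CPIP+EA rats had the same ischemia and then 100 Hz electroacupuncture (EA) of both hind limbs daily for 10 days. No group without ischemia was given EA, and none had needles without current, so the comparison of CPIP+EA with CPIP holds the whole procedure together.

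All 9 genes encode receptors that span the membrane and act through G proteins. The 3 NPY receptors and the galanin receptors Galr1 and Galr3 couple mainly to inhibitory G proteins, which lower cyclic AMP, while Galr2 also acts through the Gq pathway and calcium. Vipr1 and Vipr2 bind VIP and PACAP alike, Adcyap1r1 (the PAC1 receptor) prefers PACAP, and these 3 raise cyclic AMP. In DRGs the peptides themselves are known as transcripts that accumulate in sensory neurons after injury to their axons, whereas the receptors set which neurons and terminals can respond.

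Values are FPKM, that is, fragments counted per kilobase of a gene's transcript and relative to all mapped fragments of the library. Levels can thus be set roughly side by side between genes and between libraries. The FPKM of different libraries do not share a common total, and their sums ran from 445647 to 482940. Changes were tested with limma on log2(FPKM + 0.5), a scale that understates the change of genes with low values. A gene was called when its p, adjusted over all 17187 genes tested, was under 0.01 and its level differed at least 1.5-fold in either direction. Of the 9 receptor genes, 7 passed the filter (mean FPKM 0.1 or more), and Galr3 and Vipr1 did not. The study's methods speak of 3 rats per group, and nothing further states what separates the libraries, so p-values measure the spread between these libraries. The tissue label was checked against markers of sensory neurons, and all 9 of them were detected, with a summed FPKM of 5394 to 7015. Libraries were alike, with Pearson's r between any pair of them of 0.977 to 0.990 across genes. Neutrophil and erythroid markers were highest in CPIP+EA 3, at a summed 532 and 2377 FPKM against 26.7 to 212 and 247 to 1435 in the other libraries. Skeletal muscle markers stood out in CPIP 2, at 120.0 FPKM against 7.45 to 35.9 elsewhere.

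None of the 7 tested receptor genes was called in any of the 3 comparisons. Of all tested genes 0.355% were called in CPIP against Sham, 0% in CPIP+EA against CPIP and 0.483% in CPIP+EA against Sham, so a count of 0 among 7 genes does not set the receptors apart from other genes. At an unadjusted limma p under 0.05 the count was 1 of 7 in each comparison. It was Npy2r between CPIP and Sham, where 8.66% of all genes passed, Npy5r between CPIP+EA and CPIP, where 4.29% passed, and Npy2r again between CPIP+EA and Sham, where 12.2% passed. Over the 7 genes, the median log2 fold change was -0.06, 0.04 and 0.04 in the 3 comparisons, and over all tested genes it was -0.0064, 0.012 and 0.0014. CPIP libraries enter the first comparison and the second, and Sham libraries the first and the third, so the comparisons are not independent of each other.

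**Figure D1:**
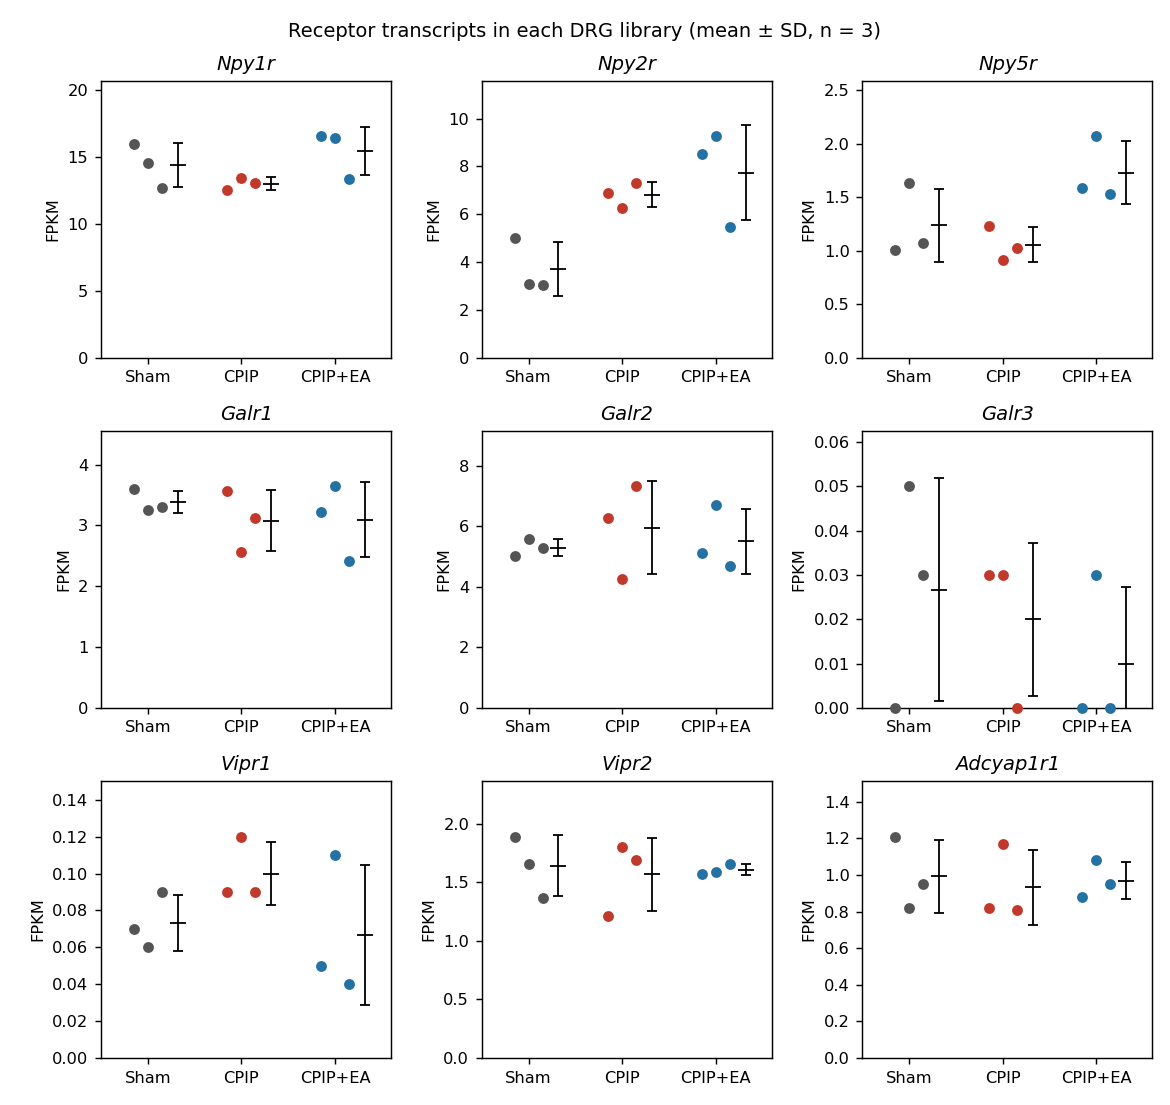
Each panel plots the FPKM of a receptor gene (vertical axis from 0, with its own scale) in the 9 libraries, with points for libraries in the order of their replicate numbers and the mean ± SD of each group of 3 beside them. Npy2r lies at 3.06 to 5.01 in Sham and at 5.47 to 9.26 in the 6 CPIP and CPIP+EA libraries, Npy5r is higher in every CPIP+EA library than in every CPIP library, and in the other panels the groups overlap; the lower end of the Galr3 bar in CPIP+EA falls under 0 and is not drawn.

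Npy1r (gene ID 29358), the Y1 receptor found on the cell bodies of many small sensory neurons, was the most abundant of the 9 genes, and its mean FPKM lay at percentile 71.7 of all genes in the table. Its FPKM was 15.95, 14.53 and 12.71 for Sham, 12.54, 13.47 and 13.03 for CPIP and 16.55, 16.42 and 13.38 for CPIP+EA. The groups overlapped in each comparison, and the means were 14.4 ± 1.62, 13.0 ± 0.465 and 15.4 ± 1.79 (SD, n = 3). The fold change, with its 95% interval, was 0.910 (0.773 to 1.07) in CPIP against Sham, 1.18 (0.999 to 1.38) in CPIP+EA against CPIP and 1.07 (0.909 to 1.26) in CPIP+EA against Sham. The adjusted limma p was 0.851, 0.997 and 0.772 in the same order. All 3 intervals lie within 1.5-fold in either direction, so a larger change of the Npy1r transcript in the whole ganglion lies outside what these libraries allow at that level.

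Npy2r (gene ID 66024), the Y2 receptor known as a presynaptic brake on transmitter release, was higher in every CPIP and every CPIP+EA library than in any Sham library. Its FPKM was 5.01, 3.07 and 3.06 for Sham, 6.89, 6.27 and 7.31 for CPIP and 8.51, 9.26 and 5.47 for CPIP+EA, with means of 3.71 ± 1.12, 6.82 ± 0.523 and 7.75 ± 2.01 (SD, n = 3). The highest Sham library and the lowest CPIP+EA library came close to each other, while the CPIP libraries were tightly grouped. Fold changes against Sham were 1.77 (95% interval 1.26 to 2.49) in CPIP and 1.96 (1.39 to 2.75) in CPIP+EA, on the log2 scale 0.83 and 0.97 with a standard error of 0.22 each. The adjusted limma p was 0.195 in CPIP and 0.0783 in CPIP+EA, and neither passed the threshold. In the order of all 17187 p-values Npy2r stood at 357 and at 336. Groups that do not overlap in this direction were common, at 7.98% of all tested genes for CPIP and 8.87% for CPIP+EA. Between CPIP+EA and CPIP the fold change of Npy2r was 1.10 (0.786 to 1.55), with overlapping libraries and an adjusted limma p of 0.997, and this interval still holds changes of up to 1.5-fold upward.

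With the libraries of CPIP and CPIP+EA pooled against Sham, a comparison chosen after the values were seen, the log2 fold change of Npy2r was 0.90 (95% interval 0.47 to 1.32) with an adjusted limma p of 0.0563. Among all tested genes 4.05% were higher in each of the 6 libraries than in each Sham library, and 0.599% were called. Markers of axon injury moved with the same groups: all 6 in the list, among them the transcription factor Atf3 and the growth protein Gap43, rose in CPIP and in CPIP+EA against Sham, and their summed FPKM was 140.0 to 154 in Sham, 353 to 442 in CPIP and 361 to 474 in CPIP+EA. Of these calls, those of Gap43 were lost in 6 of 22 alternatives in CPIP against Sham and in 1 of 21 in CPIP+EA against Sham, and those of Sox11 in 6 of 22 and 4 of 21. Of the sensory neuron markers, 0 of 9 were called in limma, and 3 of 9 had an unadjusted p under 0.05 between CPIP and Sham, 1 higher and 2 lower. Within CPIP+EA, the library with the least Npy2r was CPIP+EA 3, which also had the least Npy1r, the lowest summed sensory neuron markers of its group (5707 against 6765 and 7015) and the high neutrophil and erythroid markers given above. Its summed Schwann cell markers (9408 against 4722 and 6978 FPKM) and fibroblast markers (881 against 515 and 428 FPKM) were the highest of its group. Against Sham, all 4 fibroblast markers had lower values in CPIP+EA, 3 of them at an unadjusted limma p under 0.05 and 0 called. Without CPIP+EA 3, Npy2r in CPIP+EA against Sham had a log2 fold change of 1.19 and an adjusted limma p of 0.0218. Without Sham 1, the Sham library with the most Npy2r, these were 1.18 and 0.0458. Over all alternatives the adjusted limma p of Npy2r in CPIP+EA against Sham ran from 0.0218 to 0.263, the highest without Sham 2 at a log2 fold change of 0.87, and in CPIP against Sham it reached 0.542, also without Sham 2, at 0.72. The part of these markers in the level of Npy2r was not tested. In libraries of whole ganglia, fewer cells of a type and less RNA per cell cannot be told apart.

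Npy5r (gene ID 25340), the Y5 receptor, was a gene of low level, and its difference lay between CPIP+EA and CPIP. Its FPKM was 1.01, 1.63 and 1.07 for Sham, 1.23, 0.91 and 1.03 for CPIP and 1.59, 2.07 and 1.53 for CPIP+EA. All 3 CPIP+EA libraries exceeded all 3 CPIP libraries, while Sham 2, at 1.63, lay among the CPIP+EA values. Means were 1.24 ± 0.342, 1.06 ± 0.162 and 1.73 ± 0.296 (SD, n = 3). The fold change in CPIP+EA against CPIP was 1.43 (95% interval 1.10 to 1.85), a log2 change of 0.52 with a standard error of 0.17, and its adjusted limma p was 0.997. Npy5r stood at 178 in the order of p-values in that comparison, in which 4.84% of all tested genes were higher without overlap and no gene at all was called. With a pseudocount of 0.1 in place of 0.5 the fold was 1.58 (1.13 to 2.22), and the adjusted p stayed at 0.996. Markers of other cells were set beside this comparison, and none was called. The median log2 fold change was -0.48 over 5 Schwann cell markers and -0.29 over 4 fibroblast markers. It was -0.34 over 4 skeletal muscle markers and -0.14 over 5 markers of smooth muscle and pericytes. Over 5 neutrophil markers it was 0.84 and over 5 erythroid markers 0.76. All members of each of these lists lay on the same side of 0. At an unadjusted limma p under 0.05 there was 1 in the Schwann cell list and 0 in each other of these lists, beside 4.29% of all tested genes. The summed Schwann cell markers were 6735 to 12020 FPKM in CPIP and 4722 to 9408 in CPIP+EA, and the fibroblast markers 654 to 862 and 428 to 881. The neutrophil markers summed to 26.7 to 212 FPKM in CPIP and 56.6 to 532 in CPIP+EA. The erythroid markers summed to 247 to 807 and 252 to 2377, and CPIP+EA 3 was the highest for both lists. The highest skeletal muscle sum was that of CPIP 2, given above. The part of these markers in the level of Npy5r was not tested. Against Sham the fold was 0.904 (0.697 to 1.17) in CPIP and 1.29 (0.997 to 1.68) in CPIP+EA, with adjusted limma p of 0.921 and 0.414.

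Npy5r lies next to Npy1r on rat chromosome 16, on the opposite strand, and the stranded origin of the reads is not given in the sources used here. For 3 of the 9 receptor genes the start listed by RefSeq (build GRCr8) is also the outer edge of the annotated gene, so that the 250 bases before it lie outside the gene, and these windows are shown to place the receptors of 3 different peptides side by side. They are Npy5r at chr16:27821805-27822054 on the plus strand, Galr1 at chr18:78062360-78062609 on the minus strand and Adcyap1r1 at chr4:85923921-85924170 on the plus strand. Capitals mark a CCAAT box (CCAAT, or ATTGG on the other strand) or a GC box (GGGCGG, or CCGCCC on the other strand), and each sequence is written 5′ to 3′ in the direction of transcription.
Npy5r: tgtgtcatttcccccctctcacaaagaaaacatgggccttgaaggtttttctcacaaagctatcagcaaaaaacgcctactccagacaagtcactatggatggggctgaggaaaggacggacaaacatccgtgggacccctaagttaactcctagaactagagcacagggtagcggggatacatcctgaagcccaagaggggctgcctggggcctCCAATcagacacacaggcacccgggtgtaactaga
Galr1: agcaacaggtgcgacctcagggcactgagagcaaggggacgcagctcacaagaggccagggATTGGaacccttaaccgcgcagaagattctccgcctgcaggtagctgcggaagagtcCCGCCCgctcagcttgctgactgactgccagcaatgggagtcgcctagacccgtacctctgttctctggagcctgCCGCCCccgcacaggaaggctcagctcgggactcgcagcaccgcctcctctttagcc
Adcyap1r1: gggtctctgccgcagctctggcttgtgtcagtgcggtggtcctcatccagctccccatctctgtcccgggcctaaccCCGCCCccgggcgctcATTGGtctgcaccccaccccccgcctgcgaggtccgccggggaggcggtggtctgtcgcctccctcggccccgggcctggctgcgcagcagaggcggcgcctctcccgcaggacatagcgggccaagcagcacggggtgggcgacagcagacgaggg

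The 3 windows differed in base composition. G and C made up 52.0% of the Npy5r window, 63.2% of the Galr1 window and 73.2% of the Adcyap1r1 window, against a median of 51.2% over 33469 windows of the same length in the RefSeq table. The CCAAT box of Npy5r ends 30 bases before the listed start, that of Adcyap1r1 152 bases and that of Galr1 184 bases before it. A CCAAT box was present in 34.0% of all windows and in 34.5% of those of tested genes. Galr1 held 2 GC boxes and Adcyap1r1 held 1, and a GC box was present in 30.5% of all windows and in 51.1% of the 14988 windows of tested genes. Neither an AP-1 site (TGANTCA) nor a cyclic AMP response element (TGACGTCA) nor a TATA box (TATAAA) was found on either strand of the 3 windows, and 6.34%, 1.59% and 12.9% of all windows held these, against 4.72%, 2.46% and 8.07% of those of tested genes. Among the windows of all 9 receptor genes, an AP-1 site was found in 2, those of Npy2r and Galr3, a CCAAT box in 5 and a GC box in 4. The listed starts of Npy1r, Npy2r, Galr2, Galr3, Vipr1 and Vipr2 are not at the outer edge of the annotated gene, and that of Npy2r is directly followed by ATG. The windows of these 6 genes, which include both with an AP-1 site, therefore need not lie before the gene. These matches describe letters and not bound sites.

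The proportions of the NPY receptor transcripts can be compared within each library, where scaling between libraries has no part. These ratios were chosen after the values were seen. The Npy2r/Npy1r ratio was 0.314, 0.211 and 0.241 for Sham, 0.549, 0.465 and 0.561 for CPIP and 0.514, 0.564 and 0.409 for CPIP+EA. Every CPIP and CPIP+EA library lay above every Sham library, and the means were 0.255 ± 0.0529, 0.525 ± 0.0521 and 0.496 ± 0.0792 (SD, n = 3). Each comparison with Sham gave p = 0.1 in a two-sided exact permutation test, the smallest that 3 against 3 libraries allow, and 0.2 after Benjamini-Hochberg adjustment over 30 ratio comparisons. Npy2r made up 16.0 to 22.8% of the summed FPKM of the 3 NPY receptors in Sham, 30.4 to 34.2% in CPIP and 26.8 to 33.4% in CPIP+EA. Npy1r made up 72.6 to 75.6%, 60.7 to 65.2% and 59.2 to 65.7% in the same groups, and thus remained the main NPY receptor transcript in each library. Npy5r took 4.41 to 8.48% of the sum across libraries. The Npy5r/Npy1r ratio averaged 0.0866 ± 0.0245 for Sham, 0.0816 ± 0.0154 for CPIP and 0.112 ± 0.0151 for CPIP+EA (SD, n = 3), and the groups overlapped.

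**Figure D2:**
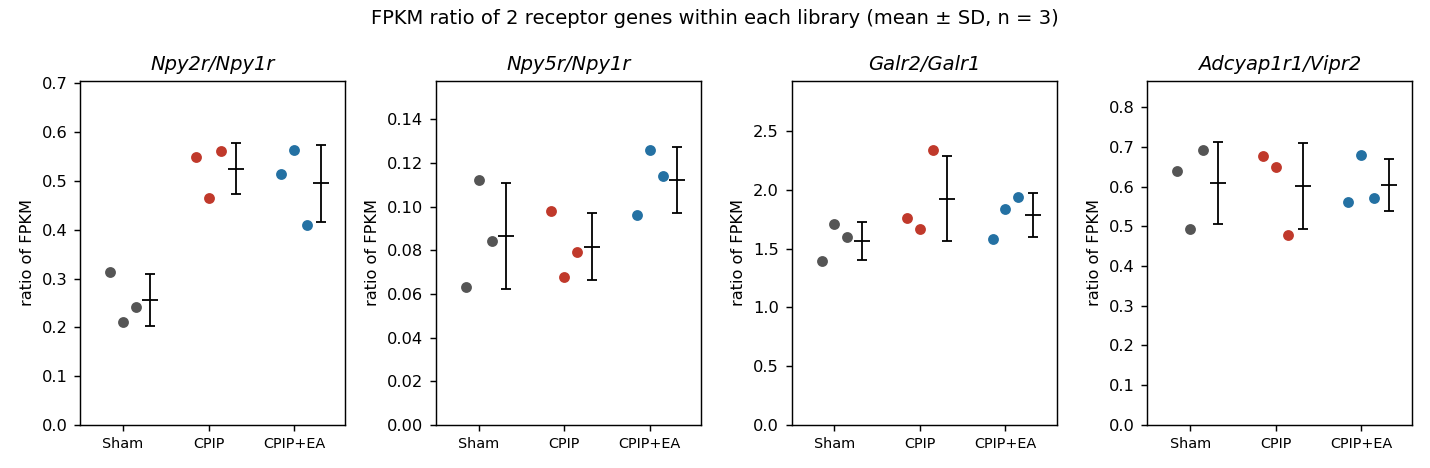
Each panel plots the ratio of the FPKM of 2 receptor genes (vertical axis from 0) in each of the 9 libraries, with the mean ± SD of each group of 3 beside the points. Npy2r/Npy1r lies at 0.211 to 0.314 in Sham and at 0.409 to 0.564 in the CPIP and CPIP+EA libraries, while Npy5r/Npy1r, Galr2/Galr1 and Adcyap1r1/Vipr2 overlap between the groups.

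The galanin receptors differed little between the groups. Galr1 (gene ID 50577), which lowers cyclic AMP and opens potassium channels, had an FPKM of 3.6, 3.26 and 3.31 for Sham, 3.56, 2.56 and 3.12 for CPIP and 3.22, 3.64 and 2.42 for CPIP+EA. The groups overlapped, with means of 3.39 ± 0.184, 3.08 ± 0.501 and 3.09 ± 0.620 (SD, n = 3). Fold changes were 0.915 (95% interval 0.721 to 1.16) in CPIP against Sham, 1 (0.788 to 1.27) in CPIP+EA against CPIP and 0.915 (0.721 to 1.16) in CPIP+EA against Sham, and the adjusted limma p was 0.927, 1 and 0.802.

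Galr2 (gene ID 29234), the galanin receptor that also signals through Gq, was the more abundant of the pair in all 9 libraries. It had an FPKM of 5.01, 5.58 and 5.29 for Sham, 6.27, 4.27 and 7.31 for CPIP and 5.1, 6.71 and 4.69 for CPIP+EA. The Sham libraries fell within the range of the CPIP libraries, whose spread was the widest, and the means were 5.29 ± 0.285, 5.95 ± 1.54 and 5.50 ± 1.07 (SD, n = 3). Fold changes were 1.09 (0.817 to 1.46), 0.940 (0.703 to 1.26) and 1.03 (0.768 to 1.37) in the 3 comparisons, with adjusted limma p of 0.948, 0.997 and 0.966. The Galr2/Galr1 ratio was 1.57 ± 0.162 for Sham, 1.92 ± 0.366 for CPIP and 1.79 ± 0.183 for CPIP+EA (SD, n = 3), with overlapping groups. Galr3 (gene ID 29235) was at the lower end of what the table records. It was listed at 0 in 4 of the 9 libraries and at 0.03 or 0.05 FPKM in the others, and it was not tested.

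Of the VIP and PACAP receptors, Vipr2 and Adcyap1r1 were measurable in each library and Vipr1 was close to the lower limit. Vipr2 (gene ID 29555), the VPAC2 receptor, had an FPKM of 1.89, 1.66 and 1.37 for Sham, 1.21, 1.8 and 1.69 for CPIP and 1.57, 1.59 and 1.66 for CPIP+EA. The CPIP+EA libraries lay inside the range of both other groups, and the means were 1.64 ± 0.261, 1.57 ± 0.314 and 1.61 ± 0.0473 (SD, n = 3). Its fold changes were 0.963 (0.769 to 1.21), 1.03 (0.821 to 1.29) and 0.989 (0.790 to 1.24), with adjusted limma p of 0.974, 0.997 and 0.983.

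Adcyap1r1 (gene ID 24167), the receptor that prefers PACAP, had an FPKM of 1.21, 0.82 and 0.95 for Sham, 0.82, 1.17 and 0.81 for CPIP and 0.88, 1.08 and 0.95 for CPIP+EA. The groups overlapped throughout, with means of 0.993 ± 0.199, 0.933 ± 0.205 and 0.970 ± 0.102 (SD, n = 3). Its fold changes were 0.959 (0.764 to 1.21), 1.03 (0.820 to 1.29) and 0.989 (0.787 to 1.24), with adjusted limma p of 0.972, 0.997 and 0.982. The Adcyap1r1/Vipr2 ratio averaged 0.609, 0.602 and 0.604 in Sham, CPIP and CPIP+EA. Vipr1 (gene ID 24875), the VPAC1 receptor, ranged from 0.04 to 0.12 FPKM over all 9 libraries, with overlapping groups, and was not tested. Without the filter on low values Vipr1 and Galr3 had log2 fold changes between -0.08 and 0.07 and an adjusted limma p of at least 0.769.

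**Figure D3:**
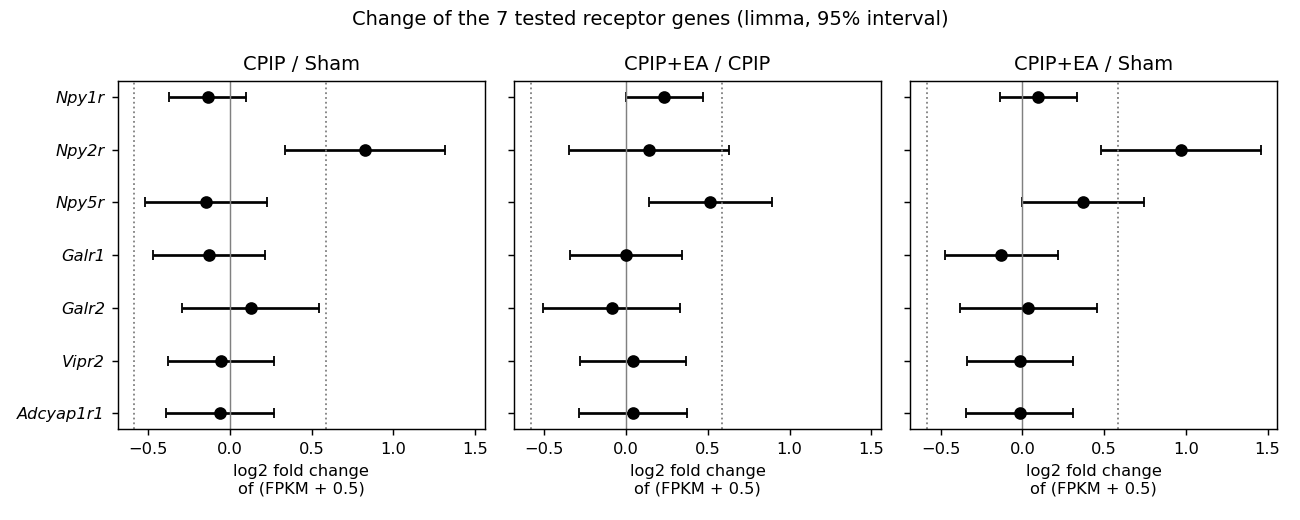
Log2 fold change of (FPKM + 0.5) of the 7 tested receptor genes in the 3 comparisons (horizontal axis), with points for the limma estimate and bars for its 95% interval; the solid line marks no change and the dotted lines 1.5-fold. Npy2r lies apart from 0 in both comparisons with Sham and Npy5r in CPIP+EA against CPIP, and the intervals of Npy1r, Galr1, Galr2, Vipr2 and Adcyap1r1 stay between the dotted lines.

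How small a change could be seen varied between the receptors. In CPIP against Sham the 95% interval lay within 1.5-fold in either direction for 6 of the 7 tested receptor genes, all but Npy2r, and for 78.4% of all tested genes. In CPIP+EA against CPIP and in CPIP+EA against Sham it did so for 5 of 7, all but Npy2r and Npy5r, and for 80.9% and 75.9% of all tested genes. With a pseudocount of 0.1, which shrinks low values less, the interval of Npy5r in CPIP against Sham also reached beyond 1.5-fold, and the counts were 5 of 7 in each comparison, against 65.1%, 66.8% and 62.9% of all genes. For Npy1r, Galr1, Galr2, Vipr2 and Adcyap1r1 a change beyond 1.5-fold in the ganglion as a whole is thus outside the intervals in each comparison and under both pseudocounts.

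Ranked by mean FPKM over the 9 libraries, the order was Npy1r (14.3), Npy2r (6.09), Galr2 (5.58), Galr1 (3.19), Vipr2 (1.60), Npy5r (1.34), Adcyap1r1 (0.966), Vipr1 (0.0800) and Galr3 (0.0189). Most neighbours in this order kept it in 9 of 9 libraries. Npy2r and Galr2 did not differ beyond their spread: Npy2r was the higher in 5 of 9 libraries, in 0 of 3 in Sham, 2 of 3 in CPIP and 3 of 3 in CPIP+EA. In Sham 2 and Sham 3 Npy2r (3.07 and 3.06) also lay below Galr1 (3.26 and 3.31), so its second place rests on the CPIP and CPIP+EA libraries. Vipr2 exceeded Npy5r in 6 of 9 libraries and Npy5r exceeded Adcyap1r1 in 7 of 9, so the order of these neighbours varied. Vipr2 lay above Adcyap1r1 in each library, with an Adcyap1r1/Vipr2 ratio of 0.479 to 0.693. The 3 genes ranged from 0.81 to 2.07 FPKM. From Npy1r to Galr3 the genes span from percentile 71.7 to percentile 7.25 of all genes in the table. Among the 21 pairs of tested receptor genes, Pearson's r of the log2 values over the 9 libraries ranged from -0.507 (Galr2 and Adcyap1r1) to 0.590 (Galr1 and Galr2), with Npy1r and Npy5r at 0.539. These values include the differences between groups. With each group's mean removed, r was 0.720 for Galr1 and Galr2, 0.120 for Npy1r and Npy5r and 0.843 for Npy1r and Npy2r, a pair at 0.350 before. With so few libraries none of these values was tested.

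The ligand transcripts were far from this pattern, and 8 of the 9 genes in the ligand list were in the table (all but Ppy), of which 5 passed the filter. In CPIP against Sham 3 of the 5 rose (Npy, Gal and Vip), and in CPIP+EA against Sham 4 of the 5 did (with Adcyap1, which encodes PACAP and whose call was lost in 13 of 21 alternatives, at an adjusted limma p of up to 0.0371), against 0.343% and 0.477% of all tested genes called higher. These peptides were known from earlier results of these data when the list was chosen, so their rise is given as background to the receptors. Npy had an FPKM of 3.92, 7.09 and 1.14 for Sham, 351.29, 365.95 and 395.27 for CPIP and 396.31, 405.42 and 413.63 for CPIP+EA. Its log2 fold change against Sham was 6.61 in CPIP and 6.74 in CPIP+EA, with adjusted limma p of 0.000135 and 0.000114. Gal averaged 5.13 ± 0.406, 42.1 ± 5.63 and 58.7 ± 5.25 FPKM, Vip 0.147 ± 0.0833, 13.5 ± 3.34 and 18.1 ± 3.22, and Adcyap1 22.9 ± 1.70, 43.8 ± 2.01 and 46.3 ± 9.65 (SD, n = 3) in Sham, CPIP and CPIP+EA.

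The log2 change in CPIP against Sham was 2.91 for Gal and 4.41 for Vip, with adjusted limma p of 9.64e-06 and 1.19e-05. For Adcyap1 it was 0.92, with an adjusted limma p of 0.0125 that missed the threshold, and in CPIP+EA against Sham it was 0.98 with 0.00683. Between CPIP+EA and CPIP none of the 5 ligand genes was called, and 2 of them, Gal and Vip, had an unadjusted limma p under 0.05, against 4.29% of all tested genes. Gal and Npy were higher in each CPIP+EA library than in any CPIP library, as were 4.84% of all tested genes. Gal had a log2 change of 0.48 (95% interval 0.24 to 0.72) and an adjusted limma p of 0.969, and Npy 0.13 (-0.85 to 1.11) with 0.997. Sct, which encodes secretin, ranged from 0.32 to 1.13 FPKM with overlapping groups. Pyy (peptide YY) was listed at 0 in every library, Galp (galanin-like peptide) was above 0 only in CPIP 3, at 0.09, and Spx (spexin) reached at most 0.12.

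**Figure D4:**
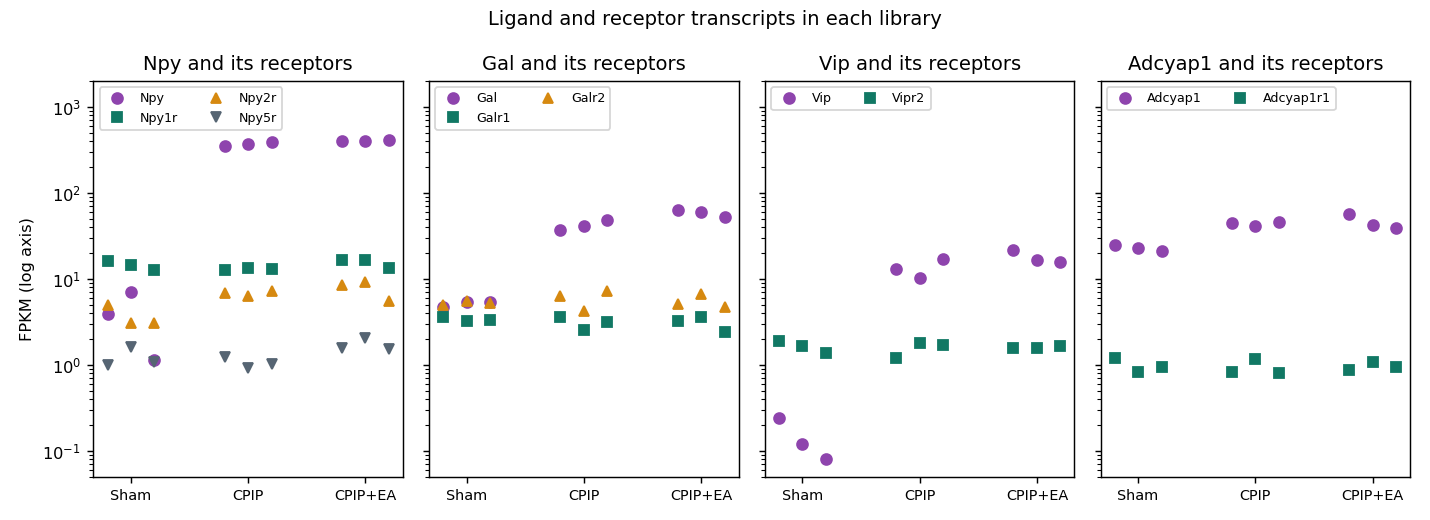
FPKM of each ligand gene (circles) and of its tested receptor genes (squares and triangles) in the 9 libraries, on a logarithmic vertical axis, with libraries of a group side by side in the order of their replicate numbers. Npy, Gal and Vip stand well above their Sham level in the CPIP and CPIP+EA libraries, Adcyap1 less so, while the receptor genes stay within about 0.8 to 17 FPKM in all groups.

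Set against the receptors within each library, the balance of transcripts shifted toward the ligands. The Npy/Npy1r ratio averaged 0.274 ± 0.201 for Sham, 28.5 ± 1.64 for CPIP and 26.5 ± 3.83 for CPIP+EA (SD, n = 3). The Npy/Npy2r ratio was 1.15 ± 1.02, 54.5 ± 3.71 and 55.3 ± 17.6, although Npy2r was higher in the same libraries. Gal/Galr1 went from 1.52 ± 0.195 in Sham to 13.9 ± 3.09 in CPIP and 19.3 ± 2.64 in CPIP+EA, and Gal/Galr2 from 0.968 ± 0.0471 to 7.36 ± 1.97 and 10.9 ± 1.71. Vip/Vipr2 was 0.0859 ± 0.0363, 8.86 ± 2.71 and 11.3 ± 2.28, and Adcyap1/Adcyap1r1 was 23.6 ± 4.12, 48.5 ± 11.3 and 48.6 ± 14.3. Npy, Gal, Vip and Adcyap1 themselves lay above Sham in every CPIP and CPIP+EA library, and their rise was known when they were chosen. The separation of these ratios from Sham was thus largely set beforehand, and it is given as a description. In each of these 6 ratios all CPIP and all CPIP+EA libraries exceeded all Sham libraries, with p = 0.1 in the two-sided exact permutation test and 0.2 after adjustment over the 30 comparisons. Between CPIP+EA and CPIP the Gal/Galr1 ratio did not overlap either (16.6 to 21.8 against 10.4 to 16.0), with the same p-values, and the other 5 ratios overlapped. These are ratios of transcripts and not of peptide to binding sites, and the peptides may be made in other cells than the receptors.

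Other genes of the pathway were taken from lists chosen by function. Of receptors related to the 9 in sequence (among them Npy4r for pancreatic polypeptide, Sctr for secretin and Ghrhr for growth hormone-releasing hormone), all 9 were in the table, 4 passed the filter and 0 were called in limma, and at an unadjusted p under 0.05 there were 0 in CPIP against Sham, 0 in CPIP+EA against CPIP and 2 in CPIP+EA against Sham, Gipr and Ghrhr, both higher. Their summed FPKM was 2.14 to 2.87 in Sham, 2.42 to 2.52 in CPIP and 2.66 to 3.29 in CPIP+EA. Of 13 tested genes for peptide-cleaving enzymes, receptor kinases, arrestins and receptor-associated proteins, 0 were called, and 2, 0 and 4 had an unadjusted p under 0.05 in CPIP against Sham, CPIP+EA against CPIP and CPIP+EA against Sham. Of 25 G protein subunit genes 0 were called, with 2, 0 and 5 under that unadjusted p. The list of 31 enzymes and targets of cyclic AMP also held 0 called genes, with 5, 0 and 9 under it. Of the 4 genes for GIRK channels, the potassium channels opened by inhibitory G proteins, 0 were called, with 1, 0 and 1 under it. Over all tested genes 8.66%, 4.29% and 12.2% lay under it in the same comparisons. The median log2 fold change of these 4 lists of signaling genes lay between -0.12 and 0.01 in all 3 comparisons.

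Among 35 tested genes for receptors of other neuropeptides, Cckbr, the receptor for gastrin and cholecystokinin, was called in CPIP against Sham and in CPIP+EA against Sham, and 0 genes were called in CPIP+EA against CPIP. Of all tested genes 0.355%, 0.483% and 0% were called in the same order. At an unadjusted limma p under 0.05 the counts were 6 (5 higher, 1 lower) in CPIP against Sham, 1 in CPIP+EA against CPIP and 9 (7 higher, 2 lower) in CPIP+EA against Sham, beside 8.66%, 4.29% and 12.2% of all tested genes. The FPKM of Cckbr was 0.39, 0.08 and 0.37 for Sham, 2.57, 3.51 and 3.58 for CPIP and 3, 3.61 and 1.79 for CPIP+EA, with no overlap between Sham and the others. Of all tested genes 7.98% in CPIP and 8.87% in CPIP+EA were likewise higher than Sham without overlap. Its log2 fold change against Sham was 2.27 in CPIP and 2.07 in CPIP+EA, with adjusted limma p of 0.00323 and 0.00443. The call was lost in 7 of 22 and 9 of 21 alternatives, with adjusted p of at most 0.0243 and 0.0298. Cckbr thus passed in the same comparisons in which Npy2r, at adjusted p of 0.195 and 0.0783, did not. The median log2 fold change of the 35 genes was 0.01, 0.00 and 0.03 in the 3 comparisons.

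For each tested receptor gene the 3 genes with the most similar pattern were sought by Pearson's r of log2 values over the 9 libraries, among 13914 genes whose mean FPKM was 1 or more. The likeness of the best of so many genes is high for any pattern, so r serves here only to name them. Closest to Npy2r were Arrb1 (r = 0.979), which encodes an arrestin, Abhd17b (0.978) and the neuronal tubulin Tubb3 (0.975). Arrb1 averaged 47.2 FPKM for Sham, 62.5 for CPIP and 65.5 for CPIP+EA, and its adjusted limma p in CPIP against Sham was 0.163, while Tubb3 averaged 1177, 1563 and 1622 FPKM with 0.351. Tubb3 is also in the list of sensory neuron markers, whose median log2 fold change in CPIP against Sham was -0.10. Closest to Npy1r were Pja1 (0.981), Ctbp1 (0.943) and Hsp90ab1 (0.921), and closest to Npy5r were Supt16h (0.943), Ghitm (0.924) and Ppp1ca (0.919). Galr1 was most like Kcnt2 (0.957), Chrna7 (0.949) and Ttl (0.946), and Galr2 most like Col9a2 (0.960), Capn10 (0.948) and RGD1561517 (0.920). For Vipr2 these were Ubqln4 (0.921), Igfbp6 (0.920) and Dck (0.911), and for Adcyap1r1 Plpp2 (0.925), Fam151a (0.867) and Arih2 (0.848).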

How the data were processed

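RNA-Seq was performed on 9 DRG libraries, 3 each from Sham, CPIP and CPIP+EA rats. The authors sequenced poly(A)-selected RNA as single-end reads, filtered them with SOAPnuke and deposited FPKM per gene and library, rounded to 2 decimals; the aligner, genome build and annotation are not given in the sources used here. The table also holds 9 columns of the authors' own comparisons (log2 ratios, P-values and Q-values), which were not used. The study tabulates total reads and mapping ratios of the libraries, but the FPKM carry no read counts per gene, so the depth behind a single value and its counting error are unknown. Precision is limited by having 3 libraries per group. The FPKM of a library summed to between 445647 and 482940.

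Here, genes whose mean FPKM was 0.1 or more were fitted as log2(FPKM + 0.5) with limma 3.58.1 (trend) in R 4.3.3, all 9 libraries in 1 fit, with Benjamini-Hochberg adjustment over 17187 genes. Intervals are at 95%. Tables, exact tests and figures were made with Python 3.11.15, numpy 2.4.6, pandas 2.3.3, scipy 1.17.1 and matplotlib 3.10.9. The members, gene lists and tests were chosen with earlier results of these data known. The genes named are the 9 receptor genes, the genes of the ligand list, the called genes of the other lists and the 3 genes most like each tested receptor gene. Npy4r, Sctr, Ghrhr and Gipr are named outside this rule, as examples or after their values were seen. Alternatives were another pseudocount, filter, scaling, variance model, threshold or pairing, 2-group fits and each library left out in turn. With each gene's group mean removed, same-numbered libraries of different groups correlated at -0.236 to 0.297, so the numbers were not taken to pair them. Promoter windows and neighbours are from RefSeq (GRCr8), where all 9 receptor genes matched by gene ID and symbol.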

Additional observations from a re-analysis of the deposited data

How the results depend on the processing

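The number of receptor genes called was 0 in each comparison under all 21 alternatives and with CPIP and CPIP+EA pooled. Over all genes, 61 were called in CPIP against Sham, 0 in CPIP+EA against CPIP and 83 in CPIP+EA against Sham. Without the filter these counts were 40 and 55 in the comparisons with Sham, at an adjusted p under 0.05 with no fold limit 122 and 226, and with fits of only the 2 groups compared 1 in CPIP+EA against CPIP and 46 in CPIP+EA against Sham. With both CPIP groups against Sham the count was 103. With the replicate number as a block, 26 and 42 genes were called in the comparisons with Sham, Npy2r had an adjusted limma p of 0.238 and 0.109, and Adcyap1, Cckbr, Gap43 and Sox11 were no longer called against Sham. Leaving out each library in turn gave 30 to 62, 0 to 2 and 35 to 82 called genes. Adcyap1 in CPIP+EA against Sham lost its call in 13 of 21 alternatives and gained it in CPIP against Sham in 6 of 22.

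Npy2r kept its direction throughout, with log2 fold changes of 0.72 to 1.04 in CPIP against Sham and 0.83 to 1.19 in CPIP+EA against Sham, and Npy5r in CPIP+EA against CPIP ranged from 0.41 to 0.66. Signs changed only among values that were not called. For CPIP+EA against CPIP, Galr1 was 0.0115 with median centring, 0.000603 with a pseudocount of 1 and 0.00257 with quantile normalization. With both CPIP groups against Sham, Npy5r was 0.11. With a library left out, log2 fold changes in CPIP against Sham ranged from -0.18 to 0.042 for Adcyap1r1, from -0.027 to 0.33 for Galr2, from -0.24 to 0.011 for Npy5r and from -0.15 to 0.076 for Vipr2. In CPIP+EA against CPIP they ranged from -0.017 to 0.16 for Adcyap1r1, from -0.11 to 0.14 for Galr1, from -0.29 to 0.064 for Galr2 and from -0.092 to 0.12 for Vipr2. In CPIP+EA against Sham they ranged from -0.10 to 0.085 for Adcyap1r1, from -0.24 to 0.014 for Galr1, from -0.10 to 0.13 for Galr2 and from -0.11 to 0.068 for Vipr2. In CPIP+EA against CPIP they also ranged from -0.098 to 0.18 for Adcyap1 and from -0.38 to 0.040 for Cckbr. The cause of these changes was not tested.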
